A study of Homo sapiens with 38 samples.

Results

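The PAX family genes PAX1, PAX2, PAX3, PAX4, PAX5, PAX6, PAX7, PAX8 and PAX9 are 9 of the 19970 protein-coding genes of the GENCODE annotation. They were chosen by name, and each was followed at its promoter, the 1500 bp on either side of the canonical transcription start site (TSS), and over its gene body. Protein binding was mapped by CUT&RUN, in which an antibody tethers a nuclease that releases the DNA around the bound protein for sequencing. Region files came from 30 of the 38 libraries (the remaining 8 were IgG controls): 12 from NCI-H1299 and 18 from NCI-H661 and lines made from it.

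NCI-H1299 (H1299), a lung adenocarcinoma line, normally lacks DPPA2 and DPPA4. It carried transgenes for Flag-DPPA2 and V5-DPPA4 that doxycycline switches on, and every H1299 library analysed here came from cells given 2 µg/mL doxycycline for 7 days, so no uninduced H1299 binding was analysed here. The 6 antibodies with 2 replicates each were directed at DPPA2 (a DPPA2 antibody, a Flag monoclonal and a Flag superclonal) or at DPPA4 (an N-terminal DPPA4 antibody, ab154642 and V5). NCI-H661 (H661) is a lung large cell carcinoma line that makes both proteins itself. Untreated parental H661 gave 1 library each for DPPA2 and for DPPA4 with the central, N-terminal and ab154642 antibodies. The 2 hairpin lines were sorted bulk populations of H661, not single clones, whose inducible hairpin RNAs target DPPA4 in the shDPPA4 line and both proteins in the shDPPA2+4 line. Each gave 7 libraries: DPPA4 and RING1B after 7 days with 2 µg/mL doxycycline or with water, and PCGF1, MTF2 and EP300 with water.

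PAX proteins are transcription factors that bind DNA through a paired domain and direct the formation of organs in the embryo. Vertebrate members fall into subgroups of close relatives: PAX1 and PAX9 (skeleton, thymus and teeth), PAX2, PAX5 and PAX8 (kidney, B lymphocytes and thyroid), PAX3 and PAX7 (neural crest and muscle), and PAX4 and PAX6 (pancreatic islets, eye and brain). Developmental genes of this kind are classic targets of the Polycomb repressive complexes. Within PRC1, RING1B ubiquitylates histone H2A, and PCGF1 belongs to a variant form of the complex. MTF2 belongs to PRC2 and brings it to unmethylated CpG-rich DNA. EP300 is a histone acetyltransferase found at active promoters and enhancers. DPPA2 and DPPA4 are DNA-binding partners of early embryos and stem cells that favour CpG-rich promoters.

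The 250 bases before 7 PAX starts show how far these promoters differ in CpG content. They are RefSeq sequences of GRCh38.p14, written 5′ to 3′ on the gene's strand with every CpG in capitals. The PAX9 start (+ strand) and the 2 PAX6 starts (− strand) are shown because they carried DPPA2 and DPPA4, the PAX6 starts on different sides of the canonical TSS. The PAX5 (− strand) and PAX7 (+ strand) starts are shown for their Polycomb enrichment. The PAX4 and PAX8 starts (− strand) had few or no regions.
PAX9 canonical, chr14:36661610-36661859: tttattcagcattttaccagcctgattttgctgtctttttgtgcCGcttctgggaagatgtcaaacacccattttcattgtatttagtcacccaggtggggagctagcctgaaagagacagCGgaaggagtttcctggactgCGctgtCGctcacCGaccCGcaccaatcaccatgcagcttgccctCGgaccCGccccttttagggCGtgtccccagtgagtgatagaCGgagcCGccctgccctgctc
PAX6 upstream start, chr11:31812721-31812970: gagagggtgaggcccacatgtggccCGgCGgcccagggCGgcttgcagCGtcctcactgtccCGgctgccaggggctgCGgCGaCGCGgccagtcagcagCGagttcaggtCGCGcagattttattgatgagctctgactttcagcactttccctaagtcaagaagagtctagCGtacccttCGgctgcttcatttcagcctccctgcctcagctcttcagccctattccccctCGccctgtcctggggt
PAX6 downstream start, chr11:31809960-31810209: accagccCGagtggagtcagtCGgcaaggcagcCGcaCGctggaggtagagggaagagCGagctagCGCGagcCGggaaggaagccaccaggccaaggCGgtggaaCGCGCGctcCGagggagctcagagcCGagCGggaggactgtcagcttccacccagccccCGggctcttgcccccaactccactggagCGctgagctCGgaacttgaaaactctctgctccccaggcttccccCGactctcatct
PAX5 canonical, chr9:37034269-37034518: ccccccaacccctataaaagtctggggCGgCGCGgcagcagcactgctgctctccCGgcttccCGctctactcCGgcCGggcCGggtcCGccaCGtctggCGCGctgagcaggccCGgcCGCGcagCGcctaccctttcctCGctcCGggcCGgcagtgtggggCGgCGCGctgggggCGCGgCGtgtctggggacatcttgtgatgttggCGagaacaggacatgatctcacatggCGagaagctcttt
PAX7 canonical, chr1:18630596-18630845: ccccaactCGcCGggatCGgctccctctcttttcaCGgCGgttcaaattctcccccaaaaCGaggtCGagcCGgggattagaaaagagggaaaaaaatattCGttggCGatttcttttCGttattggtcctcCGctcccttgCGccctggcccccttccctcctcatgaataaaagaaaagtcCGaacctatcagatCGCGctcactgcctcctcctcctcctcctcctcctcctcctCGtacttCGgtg
PAX4 canonical, chr7:127618143-127618392: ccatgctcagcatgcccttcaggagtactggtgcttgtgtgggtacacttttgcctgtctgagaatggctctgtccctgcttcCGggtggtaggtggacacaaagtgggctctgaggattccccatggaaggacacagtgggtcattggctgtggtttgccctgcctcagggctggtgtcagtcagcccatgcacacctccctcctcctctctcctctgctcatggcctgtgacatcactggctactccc
PAX8 canonical, chr2:113278922-113279171: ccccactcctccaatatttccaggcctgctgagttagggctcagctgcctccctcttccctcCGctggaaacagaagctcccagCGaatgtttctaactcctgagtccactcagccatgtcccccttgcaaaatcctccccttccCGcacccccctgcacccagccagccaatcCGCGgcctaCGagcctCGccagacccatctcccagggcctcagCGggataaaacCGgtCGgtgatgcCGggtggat

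The PAX9 stretch held 11 CpGs, which is the median of 34961 RefSeq promoters, and the PAX8 stretch also held 11. A domain covered part of the PAX9 stretch in 10 of 12 H1299 and 17 of 18 H661-derived libraries, and part of the PAX8 stretch in 0 of 12 and 0 of 18. The upstream PAX6 stretch held 15 CpGs and met a domain in 2 of 12 H1299 and 16 of 18 H661-derived libraries. The downstream PAX6 stretch held 19 CpGs and met one in 11 of 12 and 11 of 18. PAX5 had 27 CpGs, a number reached by 17.7% of RefSeq promoters, with domains in 4 of 12 H1299 and 14 of 18 H661-derived libraries. PAX7 had 18 CpGs, with domains in 0 of 12 and 7 of 18, and PAX4 had 1 CpG, with domains in 0 of 12 and 1 of 18. The PAX9 and PAX8 stretches thus had equal CpG counts. They were picked for their many and few regions, so their difference in libraries was set beforehand. The PAX7 stretch met no H1299 domain. By a wider measure, the 500 bp on either side of the TSS, PAX2, PAX5 and PAX7 were CpG-rich (GC over 55% and CpG observed over expected over 0.75), PAX4 and PAX8 were CpG-poor, and the other 4 were in between, while 42.1% of all promoters were CpG-rich. By this measure CpG observed over expected was 0.645 at PAX9 and 0.382 at PAX8.

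Enriched regions came from 2 callers: EPIC2, which joins 100 bp bins into domains and counts their reads, and MACS2, which gives narrow peaks with a fold over IgG background. Regions were kept at a false discovery rate under 0.05 and a fold over IgG of more than 2. The libraries held 4904 to 105640 EPIC2 domains with 48262 to 6850681 reads in them, and 12 to 50414 MACS2 peaks. The second Flag monoclonal library from H1299 stood apart with the fewest domains, reads and peaks, and had no domain at any PAX promoter. Replicate 1 had more domains than replicate 2 with all 6 H1299 antibodies. A promoter without a region was below the callers' limits, which does not show that it was unbound.

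PAX6 and PAX9 were the PAX promoters most widely occupied, with a domain in 29 and 27 of the 30 libraries. PAX5 had one in 22 libraries, PAX2 in 17, PAX3 in 12, PAX7 in 9, PAX1 in 3, PAX4 in 2 and PAX8 in 0. In H1299 the 12 libraries gave a domain at PAX6 in 11, PAX9 in 10, PAX5 in 5, and PAX2 and PAX3 in 1 each, while PAX1, PAX4, PAX7 and PAX8 had 0. In the 18 H661-derived libraries, which also hold the Polycomb and EP300 antibodies that H1299 does not have here, PAX2 had a domain in 16 and PAX7 in 9.

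**Figure D1:**
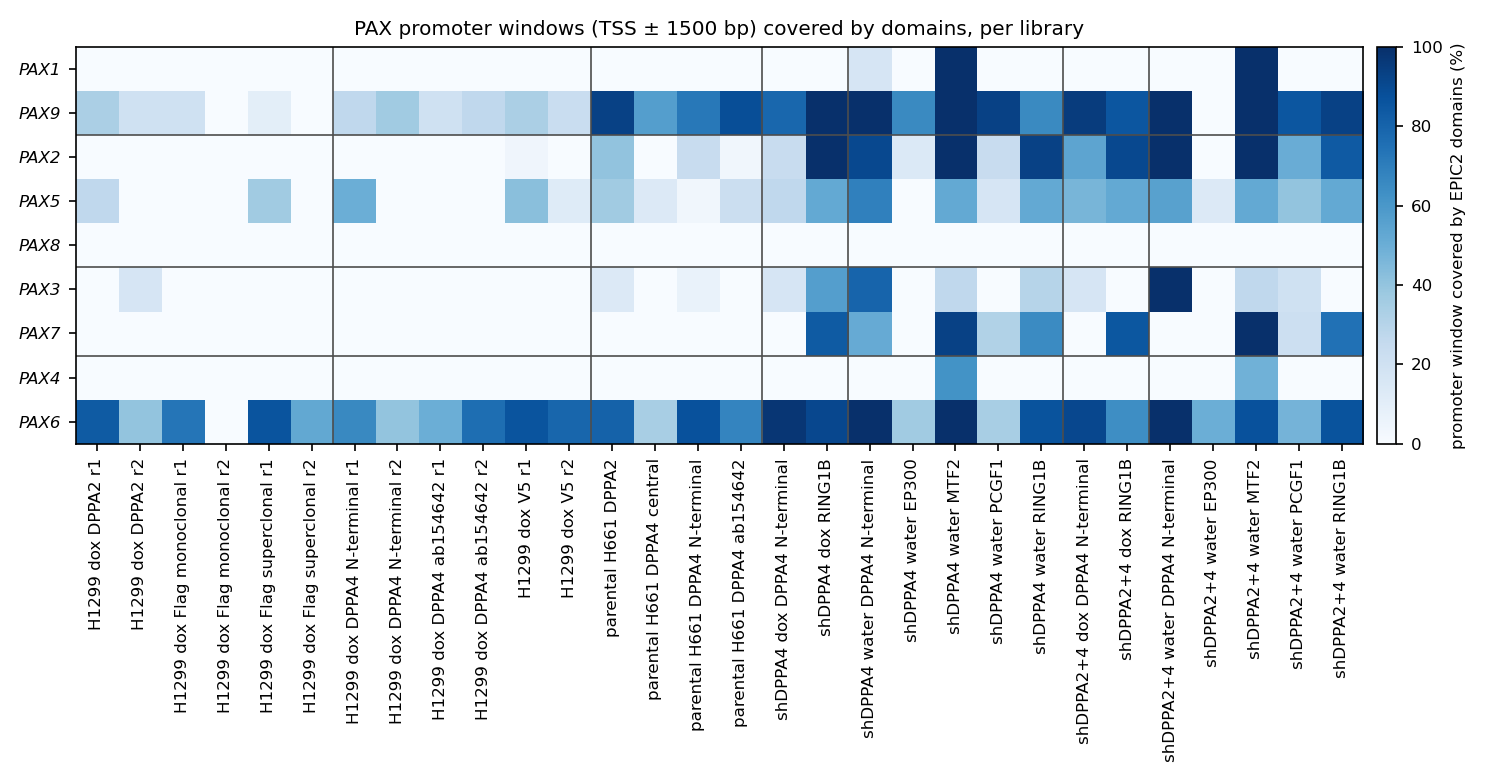
Percent of each PAX promoter window (canonical TSS ± 1500 bp, rows) covered by EPIC2 domains in each of the 30 libraries (columns), from white for 0 to dark for 100%. PAX6 and PAX9 are covered in nearly every column, PAX8 in none, and PAX1 and PAX4 mainly in the MTF2 columns.

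DPPA2 and DPPA4 together marked 2 of the 9 PAX promoters in parental H661 by MACS2 peaks, PAX6 and PAX9, while 39.2% of all promoters had both. Of the 3 CpG-rich PAX promoters, 0 had both peaks, beside 61.2% of all CpG-rich promoters and 5.10% of CpG-poor ones. EPIC2 domains gave 5 PAX promoters with both proteins (PAX2, PAX3, PAX5, PAX6 and PAX9), beside 48.2% of all promoters. In H1299, PAX6 and PAX9 were again the 2 promoters with a DPPA2 and a DPPA4 domain in both replicates, beside 30.6% of all promoters. With MACS2 peaks in H1299 the count was 0, beside 3.46% of all promoters. With the Flag superclonal and V5 tag antibodies in place of the protein antibodies it was 1, beside 31.3%. Each parental H661 antibody had 1 library, so these values have no replicate check. PAX6 and PAX9 thus met the rule of each cell line, MACS2 peaks in H661 and EPIC2 domains in H1299. The share of all promoters that meets both rules was not computed.

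PAX9 (chr14:36657568-36679362, + strand, canonical TSS at 36661860), needed for thymus and tooth formation, had the strongest DPPA2 and DPPA4 peaks of the family in parental H661. The DPPA2 peak was 21.5-fold over background, higher than 99.1% of the 9256 promoters with a DPPA2 peak. The DPPA4 peak was 23.8-fold with the N-terminal antibody (higher than 99.2% of 9389), 18.2-fold with ab154642 and 6.34-fold with the central antibody. The joined peak ran from −0.287 to 2.926 kb around the TSS, so most of it lay downstream. Domains touching the PAX9 window held 617 DPPA2 reads and 73 IgG reads, and 301 DPPA4 (N-terminal) reads and 33 IgG reads. IgG itself was dense at PAX9 in H661, with 7.85 reads per kb in the DPPA2 domains against a median of 2.67 over all domains of that library, and 10.3 against 3 in the N-terminal DPPA4 library. At PAX6 the IgG density was 1.47 reads per kb in the DPPA2 library, below that median. The part of the IgG density in the PAX9 values was not tested. In H1299 the PAX9 domains were short and close to the TSS, covering 0 to 36.7% of the window with a median of 21.7%, where the parental H661 libraries covered 56.6% to 93.3%. How many of all promoters differ between the lines in this way was not computed. The libraries also differ in depth and IgG control, and the sparse second Flag monoclonal library was among those at 0.

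PAX1 (chr20:21705659-21718481, + strand, TSS at 21705664), the close relative of PAX9 that patterns the vertebral column, had no DPPA2 or DPPA4 domain in the parental line or in H1299. MTF2 covered its whole window in both hairpin lines, with peaks of 17.5-fold in shDPPA2+4 cells and 17.2-fold in shDPPA4 cells and domains of 9300 and 7000 bp. RING1B, PCGF1 and EP300 had no domain there. The one other domain was DPPA4 in shDPPA4 cells with water, with 11 library reads and 0 IgG reads. PAX1 thus had MTF2 domains without RING1B or PCGF1 domains at these limits, and PAX9 had all 3 in both lines.

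PAX6 (chr11:31784779-31817961, − strand, canonical TSS at 31811322), the regulator of eye and islet development, was occupied in both cell lines, but over different stretches. In parental H661 the DPPA2 peak was 8.49-fold (higher than 68.9% of promoters with a peak). The DPPA4 peaks were 10.2-fold with the N-terminal antibody, 7.46-fold with ab154642 and 5.52-fold with the central antibody. The parental domains held 113 DPPA2 reads against 5 IgG reads, and 89 N-terminal DPPA4 reads against 3. More of the upstream 1500 bp than of the downstream 1500 bp was covered in 4 of 4 parental libraries (medians 93.3% and 54.7%). In H1299 the reverse held in 11 of the 11 libraries with a domain, and over the 12 libraries the median coverage was 45.3% upstream and 97.4% downstream. The share of all promoters with such a change of side between the lines was not computed. The joined H661 peak that spans the TSS lay from −1.877 to 0.519 kb, and a smaller one (5.10-fold DPPA2, 5.08-fold DPPA4) from 0.805 to 1.422 kb.

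A stronger H661 region lay further upstream, from −6.519 to −2.978 kb, with 11.9-fold DPPA2 and 7.34-fold DPPA4. It holds further annotated PAX6 starts and the start of ENSG00000285283, a gene model 5.062 kb from the PAX6 TSS, and CUT&RUN does not assign reads to a strand. A domain touched this region in 14 of 14 hairpin-line libraries but in 2 of 12 H1299 libraries. At the PAX6 start at −6.639 kb, a domain lay within 1500 bp in 18 of 18 H661-derived libraries and 1 of 12 H1299 libraries. At the start 2.52 kb downstream the counts were 11 of 18 and 11 of 12. The windows of the canonical and the 2.52 kb start overlap, so the same domain can count at both. At the start 3.666 kb downstream the counts were 4 of 18 and 2 of 12. H1299 domains therefore lay mainly around the canonical PAX6 start and just downstream of it. H661 domains reached across the upstream starts as well.

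PAX4 (chr7:127610292-127618142, − strand, TSS at 127618142), which acts in islet beta cells and has the CpG-poorest promoter of the family (observed over expected 0.062), had no DPPA2, DPPA4, RING1B, PCGF1 or EP300 domain. MTF2 alone was found, with peaks of 6.56-fold in shDPPA2+4 and 6.69-fold in shDPPA4 cells and domains that covered 48.6% and 61.9% of the window.

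**Figure D2:**
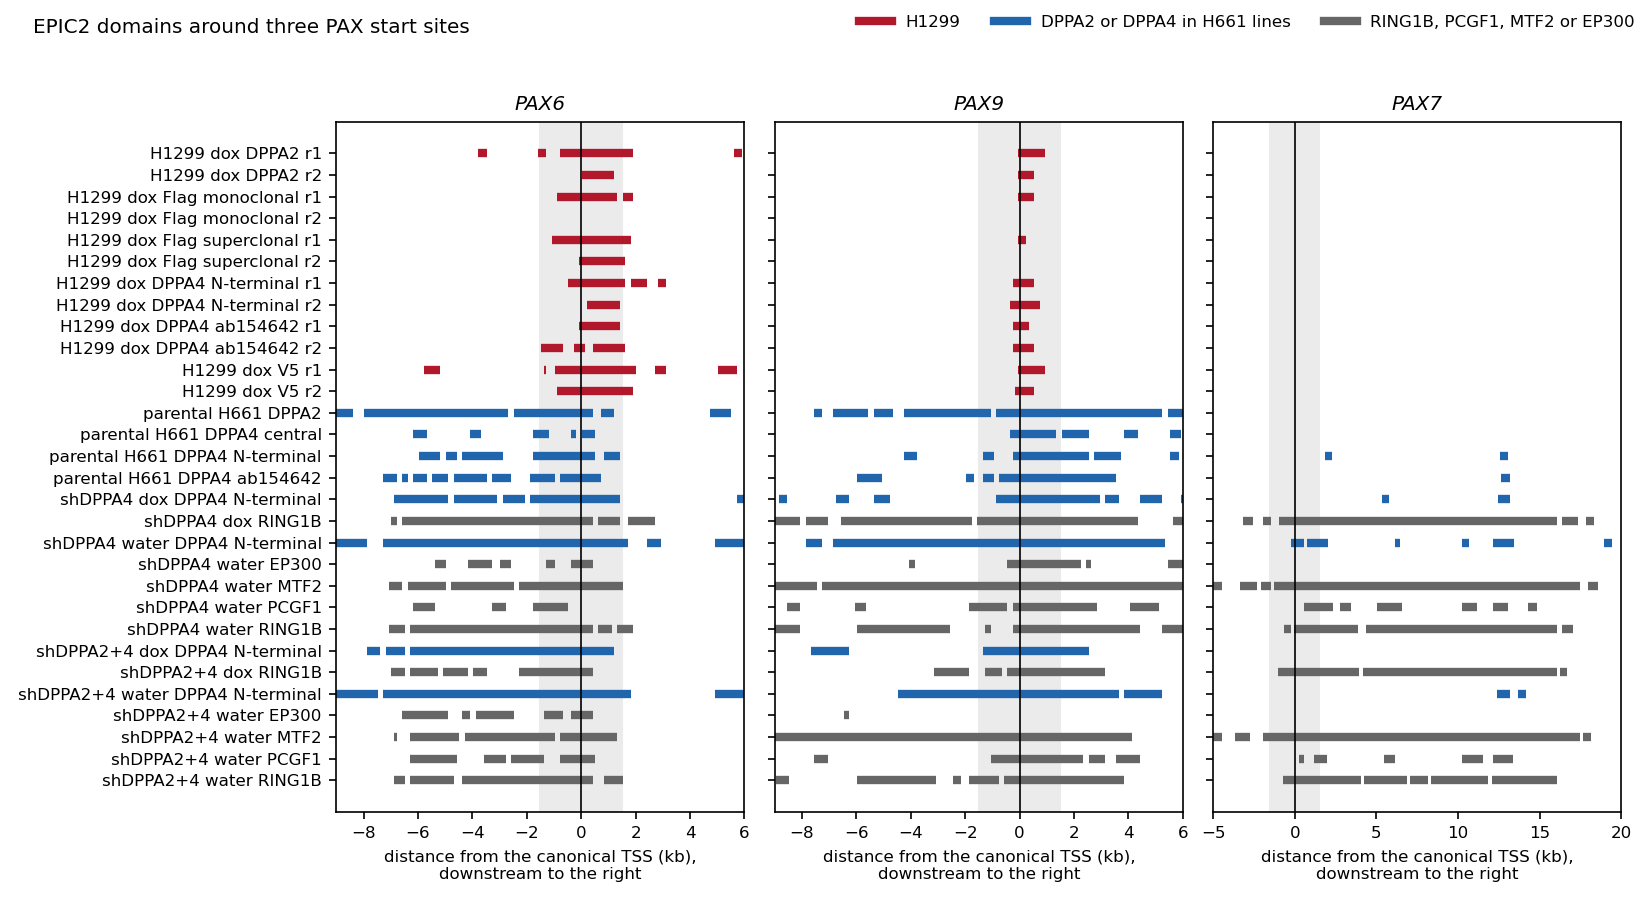
EPIC2 domains (horizontal bars) by library (rows) against distance from the canonical TSS in kb, downstream to the right, for PAX6, PAX9 and PAX7; the grey band is the promoter window. H1299 bars (red) at PAX6 lie mostly downstream of the TSS, H661 DPPA2 and DPPA4 bars (blue) reach upstream, and at PAX7 the long bars are RING1B and MTF2 (grey).

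PAX5 (chr9:36833269-37034268, − strand, TSS at 37034268), the B-cell identity factor, was covered on its upstream side. All 4 parental libraries had a domain, which covered 3.33% to 36.7% of the window with 6 to 39 reads. The DPPA2 peak was 8.40-fold and the ab154642 DPPA4 peak 10.7-fold, while the N-terminal and central DPPA4 antibodies gave no peak. In H1299, 5 of 12 libraries had a domain, 4 of them in replicate 1, with at most 33 reads. More of the upstream than of the downstream 1500 bp was covered in all 22 libraries with a domain. A second PAX5 start, 7.693 kb downstream, had a domain in 7 of 12 H1299 and 14 of 18 H661-derived libraries.

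PAX2 (chr10:100735396-100829944, + strand, canonical TSS at 100745582), a kidney and midbrain factor with a CpG-rich promoter, had an H661 pattern that H1299 nearly lacked. Domains covered 40.6% of the window with DPPA2, 24.0% with N-terminal DPPA4, 3.33% with ab154642 and 0 with the central antibody in the parental line, with 31, 33, 7 and 0 reads. Peaks were 8.88-fold with N-terminal DPPA4 and 3.73-fold with ab154642, and DPPA2 gave none. In H1299 a single domain of 7 reads (V5, replicate 1) covered 3.97% of the window. A MACS2 peak of 3.59-fold (N-terminal DPPA4, replicate 1) lay across the TSS, from −252 to 49 bp. The PAX2 start at −10.186 kb had domains in 12 of 18 H661-derived libraries and in 0 of 12 from H1299.

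PAX8 (chr2:113215997-113278921, − strand, canonical TSS at 113278921), the thyroid factor of the same subgroup, had no domain and no peak at its promoter in any of the 30 libraries. At an internal start 37.142 kb downstream, however, 9 of 12 H1299 libraries had a domain within 1500 bp and 0 of 18 H661-derived libraries did. The 9 were all 6 of replicate 1 and, in replicate 2, the DPPA2, N-terminal DPPA4 and ab154642 libraries. These domains held 7 to 49 library reads and 0 to 2 IgG reads. PAX8 was the only member whose domains at such a start came from H1299 alone. The share of all internal starts with this pattern was not computed. All H1299 libraries were directed at DPPA2 or DPPA4, while the H661-derived ones include RING1B, PCGF1, MTF2 and EP300.

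PAX3 (chr2:222199887-222298998, − strand, TSS at 222298998), a neural crest and muscle factor, had weak signal. In the parental line the window held 9 DPPA2 reads against 3 IgG reads and 9 N-terminal DPPA4 reads against 1, with a DPPA4 peak of 5.77-fold. With water, DPPA4 covered 100% of the window in shDPPA2+4 cells (56 reads) and 80.1% in shDPPA4 cells (119 reads). In H1299 it had 1 domain, with 11 reads (DPPA2, replicate 2).

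PAX7 (chr1:18630846-18748866, + strand, TSS at 18630846), the muscle stem cell factor, had no DPPA2 or DPPA4 promoter domain in parental H661 or H1299, although its promoter is CpG-rich. Its MTF2 domains were 19400 bp long in shDPPA2+4 and 18700 bp in shDPPA4 cells, longer than 99.96% and 99.97% of the MTF2 domains of those libraries. Their MTF2 peaks were 28.9-fold and 87.0-fold, and the domains held 7092 and 4787 reads against 84 and 26 IgG reads. DPPA4 appeared inside the gene in parental H661, as peaks of 4.44-fold at 1.974 to 2.193 kb and 5.08-fold at 12.696 to 12.948 kb, without DPPA2. The region at 12.696 to 12.948 kb also met a DPPA4 domain with ab154642 in parental H661, in both arms of shDPPA4 cells and in shDPPA2+4 cells with water. At the promoter DPPA4 was seen in shDPPA4 cells with water alone, with 54 reads against 6 IgG reads. So within the PAX3 and PAX7 pair, the promoter signal at PAX7 was almost wholly Polycomb.

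In H1299 the replicates allow a comparison of the DPPA2-directed and the DPPA4-directed antibodies by the percent of the window covered. PAX6 coverage in the 6 DPPA2-directed libraries was 0 at the lowest, 63.0% at the median and 85.9% at the highest, against 40.0%, 70.9% and 85.9% in the 6 DPPA4-directed libraries. PAX9 coverage was 0, 15.0% and 33.3% in DPPA2-directed libraries, against 20.0%, 26.7% and 36.7% in DPPA4-directed libraries. The groups overlapped at both genes. Mean coverage of PAX6 was 55.9% ± 32.7 with DPPA2-directed and 66.2% ± 17.9 with DPPA4-directed antibodies (SD, n = 6 each), a difference of −10.3 percentage points (two-sided exact permutation test, p = 0.571, adjusted p = 0.761). Mean coverage of PAX9 was 13.9% ± 13.1 and 27.8% ± 6.20 (SD, n = 6 each), a difference of −13.9 points (two-sided exact permutation test, p = 0.0563, adjusted p = 0.643). PAX5 averaged 10.6% ± 16.7 and 17.4% ± 22.9 (SD, n = 6 each; exact permutation p = 0.621, adjusted p = 0.790). None of these differences exceeded the spread between libraries by this test. Within 500 bp of the TSS the PAX9 difference was −37.0 points of that narrower window (two-sided exact permutation test, p = 0.00866), and its adjusted p over all promoters was 0.818.

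The PAX9 difference was close to that of promoters in general. Over the 13637 promoters tested the median difference was −12.8 points, and DPPA4-directed coverage was higher at 94.3% of them. An unadjusted exact permutation p under 0.05 was reached at 4.50% of promoters (614) and at 0 of the 5 PAX promoters tested, and an adjusted p under 0.05 at 0 promoters (0%). The smallest p that the 924 splits allow is 0.00216. Without replicate 2, the PAX6 difference was 13.6 points, the opposite direction. Without the Flag monoclonal antibody, whose second library stood apart, the PAX6 difference was −0.71 points, the PAX5 difference −1.59 and the PAX9 difference −11.9. Whether the H1299 replicates were separate cultures is not stated in the labels, so these p-values measure the spread between the libraries. Libraries of the same antibody were treated as separate units. DPPA2, Flag monoclonal and V5 domains shared 1 IgG control and the other antibodies another, so antibody and control cannot be fully told apart.

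**Figure D3:**
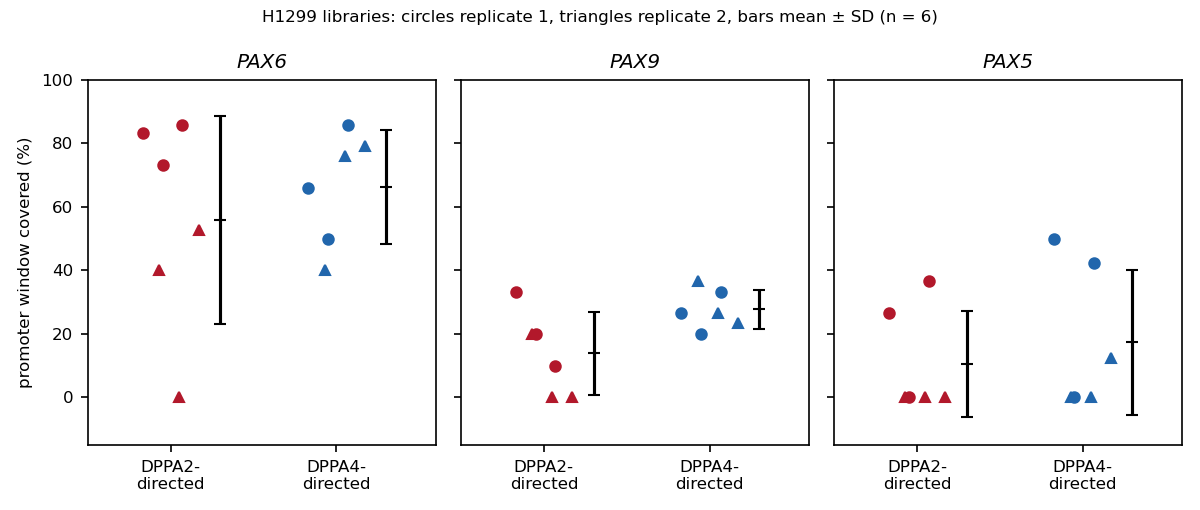
Percent of the PAX promoter window covered by EPIC2 domains in each H1299 library (points), DPPA2-directed antibodies left of DPPA4-directed ones, with the mean and SD (n = 6 each). At PAX6 and PAX9 the groups overlap, with PAX6 means of 55.9% and 66.2% and PAX9 means of 13.9% and 27.8%.

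In the water-treated hairpin lines, Polycomb proteins were found at most PAX promoters and EP300 at few. RING1B had a domain in both lines at 5 of 9 PAX promoters (PAX2, PAX5, PAX6, PAX7 and PAX9), beside 57.6% of all promoters. PCGF1 was at the same 5, beside 16.0% of all promoters. MTF2 was at 8 of 9, all but PAX8, beside 56.4%. EP300 was at 1 of 9, PAX6, beside 45.6%. DPPA4 with the N-terminal antibody was at 5 of 9 in both lines (PAX2, PAX3, PAX5, PAX6 and PAX9), beside 67.1%. The share of PAX promoters was thus above the background for PCGF1 and MTF2, near it for RING1B and below it for EP300 and DPPA4, over 9 genes and with no test made. With MACS2 peaks the PCGF1 count was 2 (PAX2 and PAX9), beside 1.41% of all promoters.

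RING1B peaks were highest at PAX5, with 26.9-fold in shDPPA2+4 and 25.2-fold in shDPPA4 cells, above 98.9% and 99.1% of promoters with a RING1B peak. PAX7 followed with 24.1-fold and 23.6-fold, PAX9 with 22.3-fold and 18.1-fold, PAX2 with 10.6-fold and 14.1-fold, PAX6 with 7.95-fold and 12.1-fold, and PAX3 with 8.61-fold and 8.85-fold. PAX3 was thus above PAX6 in shDPPA2+4 cells, where it had a RING1B peak but no domain, and below it in shDPPA4 cells. The PAX5 domains covered 52.2% of the window in both lines and all of the upstream side, the side on which DPPA2 and DPPA4 were also found. PCGF1 was weaker, from 5.89-fold at PAX9 to 9.27-fold at PAX2 where it had a peak. EP300 at PAX6 was 5.80-fold in shDPPA4 cells, and in shDPPA2+4 cells its domains held 51 reads against 10 IgG reads with no peak. EP300 at PAX9 had a peak in both lines, 5.66-fold and 9.73-fold, but a domain in shDPPA4 cells alone. MTF2 at PAX9 formed domains of 21400 and 13400 bp, of the same order as those at PAX7.

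**Figure D4:**
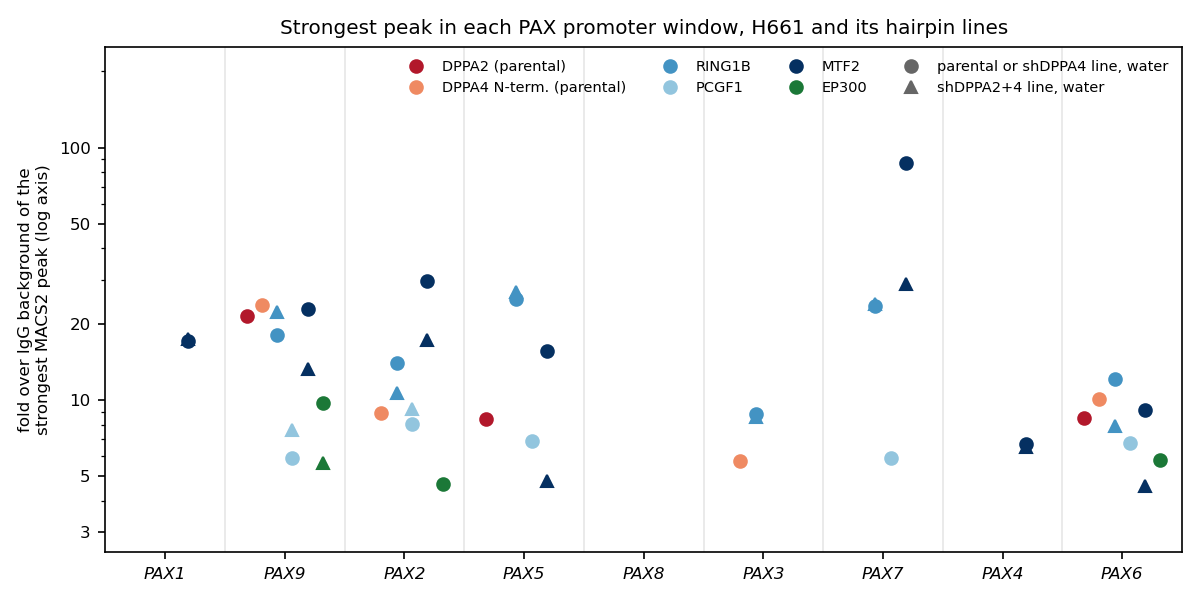
Fold over IgG background of the strongest MACS2 peak in each PAX promoter window (log axis); circles are parental or shDPPA4 libraries, triangles shDPPA2+4 libraries with water, and no point means no peak. PAX9 has the highest DPPA2 and DPPA4 points (21.5 and 23.8), PAX7 the highest MTF2 point (87.0), and PAX8 no point.

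Within gene bodies, 4 of 9 PAX genes (PAX2, PAX3, PAX6 and PAX9) had a DPPA2 and a DPPA4 peak in parental H661, beside 39.8% of all genes. PAX2 and PAX6 each had 9 separate peak regions, 8 of them at PAX2 and 7 at PAX6 outside the promoter window. DPPA2 and DPPA4 shared 4 of the regions at PAX6 and 1 at PAX2, where the others were mostly DPPA2 alone. A PAX6 region 23.125 to 24.367 kb downstream had 7.91-fold DPPA2 and 5.07-fold DPPA4, and met a domain in 9 of 14 hairpin-line libraries and 0 of 12 H1299 libraries. EP300 was among the 9 in both hairpin lines. PAX1, PAX4 and PAX8 had no peak region of either protein.

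Doxycycline switches on the hairpins, and the 2 arms of each line can be set side by side at promoters that kept a domain in both. Density is EPIC2 reads per kb, with the doxycycline value scaled by the size of its library relative to the water library through the IgG control they share. Each arm is 1 library, so the errors given are counting errors alone and no test was made. In shDPPA4 cells, 5 PAX promoters kept a DPPA4 domain with a median log2 doxycycline over water of −0.13, beside −0.39 over 11321 promoters. Of these 5, 0 were at least 2-fold lower, beside 8.63% of all. In shDPPA2+4 cells the median was −0.79 for 5 PAX promoters, beside −0.63 over 12182, and 1 of 5 was at least 2-fold lower, beside 19.6%. For RING1B the median was −0.023 over 6 PAX promoters in shDPPA4 cells, beside −0.28 over 12230, and 0 were 2-fold lower, beside 4.69%. In shDPPA2+4 cells it was −0.61 over 5, beside −0.69 over 9244, and 0 were 2-fold lower, beside 23.0%. Without scaling the RING1B medians were above 0, at 0.34 in shDPPA4 and 0.085 in shDPPA2+4 cells, beside 0.079 and 0 over all promoters.

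The MACS2 fold of the strongest peak gave lower values with doxycycline at every PAX promoter with a peak in both arms, for both proteins and in both lines. For DPPA4 the median log2 ratio of these folds was −1.42 over 4 PAX promoters in shDPPA4 cells, beside −1.03 over all promoters, so by fold the PAX median lay below the background and by density above it. In shDPPA2+4 cells it was −0.74 over 4, beside −0.64. For RING1B it was −0.79 over 5 in shDPPA4 cells, beside −0.26, and −1.14 over 4 in shDPPA2+4 cells, beside −0.61. The RING1B peak at PAX5 in shDPPA2+4 cells was 7.87-fold with doxycycline against 26.9-fold with water, and that at PAX9 8.50-fold against 22.3-fold. The density and the peak fold thus gave different sizes of change, and which of them follows occupancy was not tested.

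PAX9 had a DPPA4 domain in both arms of both lines. In shDPPA4 cells it had 107 reads per kb with doxycycline (191 scaled) against 159 with water, a log2 ratio of 0.26 ± 0.11. In shDPPA2+4 cells PAX9 had 132 (68.6 scaled) against 98.9, a log2 ratio of −0.53 ± 0.11. Without scaling these ratios were −0.57 and 0.42, so the sign at PAX9 turns with the scaling in both lines. Its DPPA4 peak was 12.4-fold with doxycycline against 31.5-fold with water in shDPPA4 cells, and 10.6-fold against 20.6-fold in shDPPA2+4 cells, lower by this measure in both. PAX6 was lower with doxycycline in both lines, with 67.3 reads per kb (120 scaled) against 171 in shDPPA4 cells (−0.51 ± 0.12) and 98.0 (50.9 scaled) against 96.4 in shDPPA2+4 cells (−0.92 ± 0.12), but the unscaled ratio in shDPPA2+4 cells was 0.024. PAX5 was lowest, at −0.77 ± 0.41 in shDPPA4 and −1.45 ± 0.27 in shDPPA2+4 cells, where 32.1 reads per kb (16.7 scaled) stood against 45.6. PAX5 stayed below 0 without scaling, at −1.61 and −0.50. Without scaling the PAX median was −0.96 in shDPPA4 and 0.15 in shDPPA2+4 cells.

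The DPPA4 domains also narrowed at the PAX promoters that kept one, most at PAX2 and PAX3. DPPA4 covered 24.0% of the PAX2 window with doxycycline against 90.6% with water in shDPPA4 cells, and 53.9% against 100% in shDPPA2+4 cells. At PAX3 it covered 16.7% against 80.1% and 16.7% against 100%. At PAX6 it covered 97.4% and 90.7% against 100% with water, and at PAX9 78.6% and 95.3% against 100%. Coverage is not scaled for depth. The doxycycline DPPA4 library was 0.56 times the size of its water library in shDPPA4 and 1.93 times in shDPPA2+4 cells. Coverage over all promoters was not set beside these values. RING1B coverage did not narrow in shDPPA4 cells (at PAX9 100% against 65.3%) and went both ways in shDPPA2+4 cells. Counting scaled reads in the whole window, a measure added after the data were seen, the PAX medians for DPPA4 were −2.03 in shDPPA4 and −1.69 in shDPPA2+4 cells, beside −1.22 and −1.06 over all promoters. The DPPA4 domains at PAX1 and PAX7 in shDPPA4 cells with water were absent with doxycycline, beside 21.0% of all promoters that lost theirs. Both were weak, with 11 and 54 reads. RING1B at PAX7 held 126 reads per kb with doxycycline (98.1 scaled) against 93.2 with water in shDPPA4 cells, and 100.2 (62.0 scaled) against 94.0 in shDPPA2+4 cells.

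The nearest protein-coding neighbours of the PAX genes, 18 in number, were counted in the same way. DPPA2 and DPPA4 were found together at 6 in parental H661, beside 39.2% of all promoters, and at 5 in H1299, beside 30.6%. MTF2 was at 12 (56.4% of all promoters), RING1B at 11 (57.6%), EP300 at 8 (45.6%) and PCGF1 at 7 (16.0%). The neighbours' shares were thus below or near those of all promoters, except for MTF2 and PCGF1, where they were above. NKX2-2 and FOXA2, which flank PAX1 and specify neural and endoderm cells, had MTF2 peaks of 48.8-fold and 39.0-fold in shDPPA2+4 and 53.8-fold and 36.7-fold in shDPPA4 cells, above the 17.5-fold and 17.2-fold at PAX1 itself.

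The members most alike in which libraries carried a promoter domain were PAX6 and PAX9, which shared 27 of the 29 libraries in which either had one, a Jaccard index of 0.931. PAX5 and PAX6 came next (0.759), then PAX5 and PAX9 (0.75) and PAX2 and PAX5 (0.696). PAX2 and PAX5, which are close relatives, were thus among the more alike pairs. PAX1 and PAX9, PAX3 and PAX7, and PAX4 and PAX6 were less alike, sharing 3 of 27, 6 of 15 and 2 of 29 libraries. PAX8 had no domain, so its index with its relatives PAX2 and PAX5 was 0. The index depends on how many libraries each member had a domain in, 29 for PAX6, 27 for PAX9, 3 for PAX1 and 2 for PAX4. For PAX6 and PAX9, PAX1 and PAX9, and PAX4 and PAX6 it was the highest that these counts allow. Likeness in these pairs therefore restates the counts. These are descriptions over 30 libraries that share cell lines, antibodies and IgG controls.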

How the data were processed

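Protein binding was measured by CUT&RUN in 38 libraries. The authors trimmed reads with Trim Galore (0.6.6), aligned them to hg38 with BWA (0.7.13), processed them with SAMtools (1.9) and Picard (2.6.0), and called regions in each library separately with MACS2, whose version the sources write in different ways, and EPIC2, whose version they give for ChIP data alone. The deposited EPIC2 files give read counts of library and IgG per domain, a log2 fold over IgG, a p-value with its FDR and a score. The deposited MACS2 files give a fold enrichment, −log10 of p and q, and a score. Deposited domain read counts are not normalized for depth.

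Regions on autosomes and X were kept at FDR under 0.05 and log2 fold over 1. The study's exclusion list was not used here. MACS2 peaks served parental H661, and EPIC2 domains the other groups. Reads of a domain were spread evenly over its length. Coverage in H1299 was compared over all promoters by an exact permutation test (Python 3.11.15, numpy 2.4.6, pandas 2.3.3, scipy 1.17.1) with Benjamini-Hochberg adjustment, tested on simulated data. GENCODE release 44 gave the start sites. RefSeq promoters matched 8 of 9 PAX genes, at 19 starts. Named genes were all PAX genes and their nearest protein-coding neighbours. A further list of partner genes is not reported here. The members and lists were chosen with earlier results of these data known.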

Additional observations from a re-analysis of the deposited data

Results flagged for a closer look

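In H1299, the PAX2 window was covered in 1 of the 6 DPPA4-directed libraries, by 3.97% (V5, replicate 1), and the PAX3 window in 1 of the 6 DPPA2-directed libraries, by 16.7% (DPPA2, replicate 2). In both cases the other 5 libraries were at 0, so a single library lay far from the rest. These were 2 of the 8 groups examined. Chance flags about 1 in 20 groups of continuous values, a rate that does not apply here, since with 5 libraries at 0 any single covered library stands out.

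Some scaled log2 ratios of doxycycline over water had opposite signs in the 2 hairpin lines. The difference between the lines was not tested, since each arm is 1 library. For DPPA4, PAX9 was at 0.26 in shDPPA4 and −0.53 in shDPPA2+4 cells, and PAX3 at −0.13 and 0.0019. For RING1B, PAX5 was at 0.26 in shDPPA4 and −0.66 in shDPPA2+4 cells, PAX6 at 0.076 and −0.61, and PAX7 at 0.074 and −0.60. By MACS2 fold, DPPA4 at PAX9 and RING1B at PAX5 and PAX7 were lower with doxycycline in both lines. Over all promoters the RING1B medians were −0.28 and −0.69.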

How the results depend on the processing

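The count of PAX promoters with DPPA2 and DPPA4 in parental H661 was 2 with MACS2 and 5 with EPIC2. In H1299 it was 2 with EPIC2, 0 with MACS2 (3.46% of all promoters) and 1 with the tag antibodies (31.3%), and 2 to 3 when one replicate was left out. PCGF1 in both water arms was at 5 PAX promoters with EPIC2 and 2 with MACS2, beside 16.0% and 1.41% of all promoters. EP300 was at 1, against 0 at a log2 fold over 2, 3 with no fold limit, 2 at any annotated start, 3 in shDPPA4 alone and 2 in shDPPA2+4 alone. The RING1B, MTF2 and gene-body counts stayed within 1.5 times under the alternatives run. Without scaling, the median log2 doxycycline over water for DPPA4 was −0.96 in shDPPA4 and 0.15 in shDPPA2+4 cells, and for RING1B 0.34 and 0.085, so 3 of the 4 changed sign. By MACS2 fold it was −1.42 for DPPA4 in shDPPA4 (−1.03 over all promoters), and −0.79 and −1.14 for RING1B in shDPPA4 and shDPPA2+4 cells (−0.26 and −0.61). By reads in the window, chosen after seeing the data, it was −2.03 and −1.69 for DPPA4 and 0.28 for RING1B in shDPPA4. The cause of these changes was not tested, beyond the scaling itself. The H1299 comparison gave 0 promoters at an adjusted p under 0.05 in every form run. With replicate 1 or replicate 2 left out, only 20 splits exist and the smallest exact permutation p is 0.1. Those 2 forms could therefore give no call. The PAX6 difference was −34.2 points without replicate 1, 13.6 without replicate 2 and 1.25 with MACS2 peaks, and the PAX5 difference 0.10 with MACS2 peaks, where the full data gave −10.3 and −6.86. Without the Flag monoclonal antibody they were −0.71 and −1.59. PAX9 ranged from −37.0 points within 500 bp of the TSS (exact permutation p = 0.00866, adjusted p = 0.818) to −5.55 without replicate 2, and was −22.2 without replicate 1. With a replicate block, labels were exchanged within replicate number, and the call stayed at 0 promoters (PAX9 adjusted p = 0.306 by exact permutation). With the block, 2075 of 13637 promoters reached an unadjusted exact permutation p under 0.05, beside 614 without it. The labels do not say that equal numbers share a culture or day, and correlations between antibodies of their replicate differences ran from 0.0044 to 0.666, so the numbers were not taken as pairs. Depth limits the weak members: the DPPA4 domains at PAX1 and PAX7 rest on 11 and 54 reads.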
